A study of Mus musculus with 6 samples.

Results

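The HOX genes of mouse mammary epithelial cells (MEC) and of breast tumor cell lines without JNK were examined in 6 RNA-seq libraries. Members were the entries of the expression table in which a gene name is Hox, followed by a cluster letter from a to d and a number. There were 38 such names on 35 of the 37753 entries that hold values, of which 37 names on 34 entries are described here: 10 in cluster A, 10 in cluster B, 9 in cluster C and 8 in cluster D. Every count and sum of HOX entries covers these 34. The table joins some neighbors on 1 entry, and Hoxa2 with Hoxa3, Hoxc5 with Hoxc10, and Hoxd10 with Hoxd11 each share their values. How these joined values were made is not given in the sources used here. All 37 names were found in GENCODE M21. On GRCm38, the described genes of cluster A lie on chromosome 6 (52162417 to 52260880, minus strand), those of cluster B on chromosome 11 (96194316 to 96368256), cluster C on chromosome 15 (102921103 to 103036852) and cluster D on chromosome 2 (74668310 to 74765142), the last 3 on the plus strand.

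MEC 1, MEC 2 and MEC 3 are primary cultures on collagen I, each pooled from the glands of 3 to 5 virgin C57/Bl6J females aged 10 to 12 weeks. They carry the Wap-Cre transgene but no deletion of Mapk8 or Mapk9, which encode JNK kinases. The MEKO lines 199, 233 and 336 were derived from mammary tumors of parous Wap-Cre mice with floxed Mapk8 and Mapk9. Their exact ages are not listed, but the source data place the death of the mice of these numbers more than a year after a first litter, so they were far older than the MEC donors. Wap-Cre is driven by the whey acidic protein promoter, which is induced in lactation, and in this study it recombined in luminal and not in myoepithelial cells. The lines passed 2 times on collagen I before they were moved to standard dishes, and their medium also differed from that of MEC. Each line is 1 library. Every MEKO library differs from every MEC library in genotype, transformation, parity, age and culture, so these and cell type makeup cannot be told apart between the groups. The source data list tumor types by mouse number: adenosquamous carcinoma for 199, adenosquamous carcinoma and adenocarcinoma for 233, and adenocarcinoma for 336. The pairing of line and mouse by number was not checked further. Values are FPKM, fragments scaled to transcript length and library size. Levels can thus be compared roughly between genes and between libraries, with limits where entries are joined or genes overlap. Absolute sequencing depth is not known from these values.

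HOX genes encode homeodomain transcription factors that set position along the body axis in the embryo. Within a cluster the genes stand in the order in which they act: low paralog numbers (here 1 to 3) are called anterior, 4 to 8 central and 9 to 13 posterior, and genes that share a number in different clusters are paralogs. Polycomb complexes keep silent HOX genes off, Trithorax complexes keep active ones on, retinoic acid induces the anterior end, and PBX and MEIS proteins bind DNA beside HOX proteins. In the mammary gland, HOX genes are active in both epithelium and stroma, and Hoxa9, Hoxb9 and Hoxd9 act together in its growth during pregnancy.

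Mapk8 was listed at 23.1, 25.1 and 19.2 FPKM in MEC 1, 2 and 3 and at 5.93, 3.12 and 1.37 FPKM in lines 199, 233 and 336. Mapk9 was at 24.4, 21.5 and 22.1 FPKM in MEC and 7.62, 3.15 and 3.07 FPKM in the lines. Both were called lower (limma, adjusted p = 0.0146 and 0.0122), although neither call held when any 1 of the MEC libraries was left out (adjusted p = 0.0538 to 0.0762). MEC held luminal and basal markers at once, with Krt8 at 1844 to 3406 FPKM and Krt14 at 289 to 460 FPKM. Epcam, an epithelial marker, was called lower in the lines, at 128 to 252 FPKM against 519 to 549 FPKM in MEC (log2 fold change −1.68; limma, adjusted p = 0.0154). None of the 10 housekeeping genes examined was listed at 0 in any library.

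To show the DNA at the start of HOX genes that behaved differently, the 250 bases before the RefSeq start (GRCm38.p6, plus strand, 5′ to 3′) are printed for Hoxb4, which was high in MEC, for Hoxd8, the highest HOX gene of line 199, and for Hoxd13, which was listed above 0 in line 199 alone. Capitals mark the CpG dinucleotides, where vertebrate DNA can be methylated.

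Hoxb4, chr11:96318017-96318266: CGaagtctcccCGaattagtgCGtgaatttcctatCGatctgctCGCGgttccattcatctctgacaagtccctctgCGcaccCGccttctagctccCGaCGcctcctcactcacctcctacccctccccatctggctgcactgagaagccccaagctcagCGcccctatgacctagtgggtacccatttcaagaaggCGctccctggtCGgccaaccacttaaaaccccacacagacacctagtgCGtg
Hoxd8, chr2:74704365-74704614: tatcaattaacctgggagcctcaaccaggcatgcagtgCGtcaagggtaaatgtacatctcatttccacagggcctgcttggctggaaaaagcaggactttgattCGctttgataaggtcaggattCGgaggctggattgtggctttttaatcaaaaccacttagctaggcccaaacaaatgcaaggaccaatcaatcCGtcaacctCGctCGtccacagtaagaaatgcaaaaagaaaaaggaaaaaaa
Hoxd13, chr2:74667975-74668224: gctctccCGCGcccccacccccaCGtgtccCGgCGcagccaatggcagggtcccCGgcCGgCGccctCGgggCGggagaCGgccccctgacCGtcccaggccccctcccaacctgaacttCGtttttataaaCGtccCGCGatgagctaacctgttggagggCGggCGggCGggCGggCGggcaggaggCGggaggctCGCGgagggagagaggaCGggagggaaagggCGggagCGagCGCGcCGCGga

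The Hoxb4 stretch holds 14 CpG and 58.0% G and C, that of Hoxd8 holds 6 CpG and 44.4%, and that of Hoxd13 holds 31 CpG and 74.4%. The RefSeq table has promoter windows (250 bases before to 50 after the start) for 21 of the 37 HOX names, 23 windows in all. These windows had a median of 15 CpG, from 4 to 45, and the 32851 windows of all genes a median of 7. The AP1, HOX-PBX, CDX and TATA motifs were searched on both strands. The AP1 motif TGANTCA was found in 1 of the 23 HOX windows (Hoxd11) and in 7.81% of all windows. TGATNNAT, a sequence of joint HOX and PBX sites, was found in 4 HOX windows (Hoxa2, Hoxb1, Hoxb8 and 1 of the 2 windows of Hoxd11) and in 8.85% of all windows. TTTATNG, bound by CDX and posterior HOX proteins, was found in the Hoxb8 window alone, at 3 places, and in 10.9% of all windows. TATAAA was found in 3 HOX windows (Hoxa10, Hoxb8 and Hoxd13) and in 13.6% of all windows, and its letters can overlap a TTTATNG match on the other strand. These matches are letters in a window and were not tied to expression.

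Most HOX genes were low in MEC, and those that were not low stood together in cluster B. Among the 34 entries, at a level of at least 1 FPKM, 3 were found in MEC 1 (Hoxb2, Hoxb3 and Hoxb4), 4 in MEC 2 (those and Hoxc6) and 3 in MEC 3. Line 199 had 14 such entries, line 233 had 0 and line 336 had 1, Hoxa7. The 5 entries that were listed at 0 in every library were Hoxa11, Hoxc11, Hoxc12, Hoxd1 and Hoxd12.

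**Figure D1:**
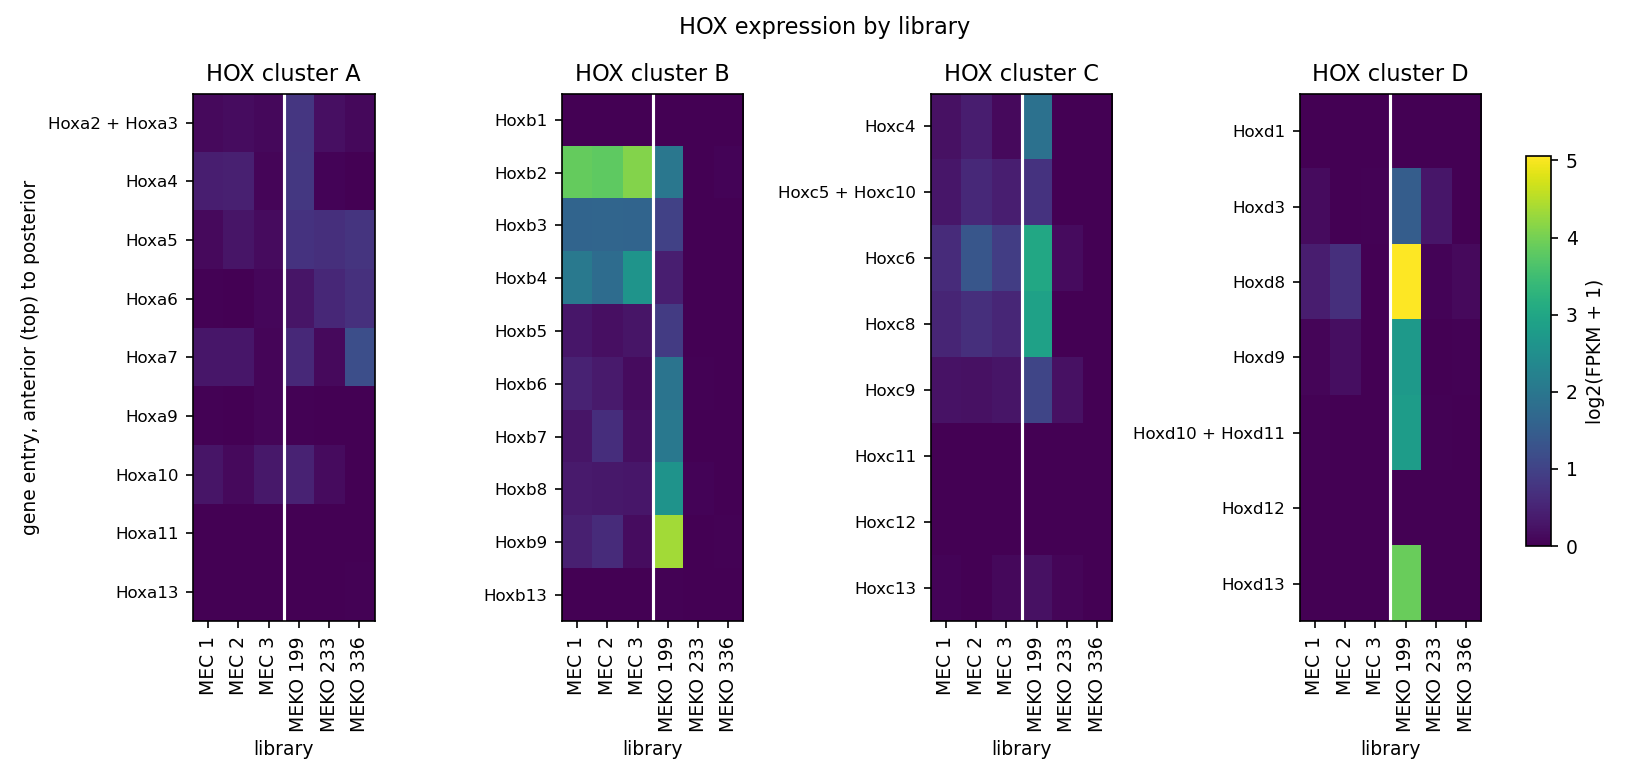
Heat maps of the 34 HOX entries, with 1 panel per cluster, 1 row per entry in order of paralog number, 1 column per library and color for log2(FPKM + 1); the white line parts MEC from the MEKO lines. The bright rows in MEC are Hoxb2, Hoxb3 and Hoxb4. Line 199 is brightest at Hoxb9 in cluster B, at Hoxc6 and Hoxc8 in cluster C, and at Hoxd8 and Hoxd13 in cluster D. Lines 233 and 336 are dark except for faint rows in the central part of cluster A.

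The summed level of the 34 HOX entries was 23.3, 24.3 and 27.2 FPKM in MEC 1, 2 and 3, and 116.9, 2.17 and 2.95 FPKM in lines 199, 233 and 336. Line 199 was above the range of MEC and the other lines were below it. The makeup of these sums also differed. Cluster B supplied 79.6% to 89.9% of the sum in MEC and 30.6% in line 199, against 3.01% in line 233 and 2.23% in line 336. Cluster D supplied 0.141% to 3.07% in MEC and 50.9% in line 199. The 9 entries of cluster A supplied 2.30% to 4.37% in MEC and 2.85% in line 199, but 68.4% and 92.6% in lines 233 and 336. These shares describe single libraries and were not tested.

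**Figure D2:**
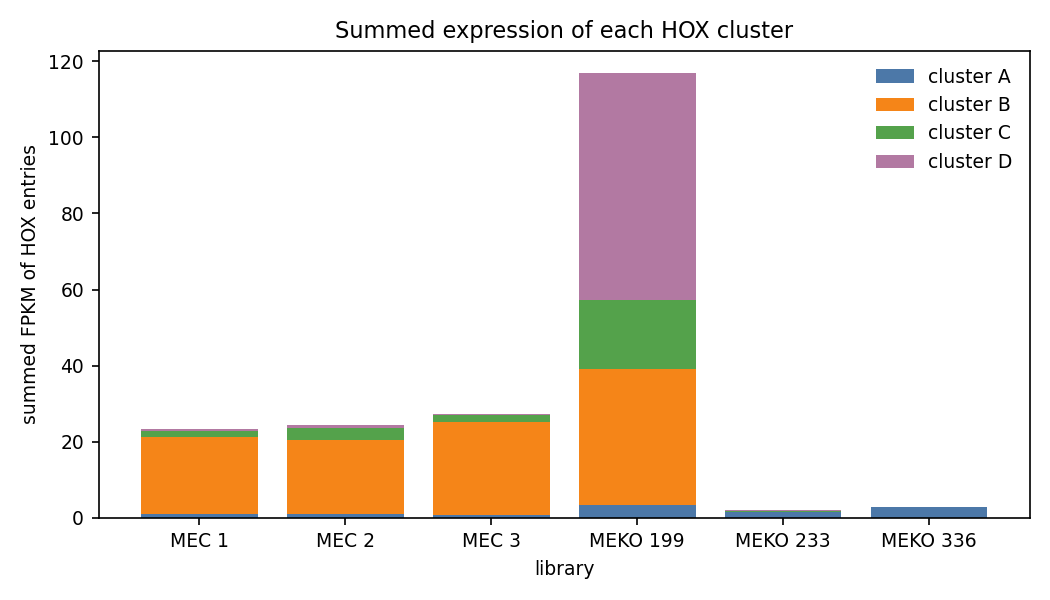
Stacked bars of the summed FPKM of the 34 HOX entries in each library, with 1 color per cluster and the axis starting at 0. Cluster B fills most of each MEC bar, line 199 reaches 116.9 FPKM with cluster D as the largest share, and the bars of lines 233 and 336 stay under 3 FPKM, most of it from cluster A.

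The 3 MEC libraries were compared with the 3 MEKO lines by limma on log2(FPKM + 1). A gene was called with an adjusted p under 0.05 and a log2 fold change beyond 0.75. Of the 34 HOX entries, 9 had a mean of at least 1 FPKM and were tested. Of these, 0 were called higher and 2, Hoxb2 and Hoxb4, were called lower, where 2.64% of the 12461 tested entries were called higher and 7.26% lower. At an unadjusted p under 0.05 there were 3 of the 9. Of the tested entries, 6 reached the mean of 1 FPKM only through line 199, so the tested members do not stand for the family. Their median log2 fold change was 0.39, against 0.014 over all tested entries, and it turned to −0.57 without line 199.

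Hoxb2, Hoxb3 and Hoxb4 carried most of the HOX expression of MEC and were lower in every MEKO line. Hoxb2 (chr11:96350525-96354012), a gene of hindbrain patterning in the embryo, was at 13.5, 12.9 and 16.4 FPKM in MEC 1, 2 and 3. It was at 3.02 FPKM in line 199, listed at 0 in line 233 and at 0.0352 FPKM in line 336. The groups did not overlap, and line 199 kept 21.2% of the MEC mean. The log2 fold change was −3.24 (SE 0.55; limma, adjusted p = 0.0190).

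Hoxb4 (chr11:96318267-96321638), known for expanding blood stem cells when supplied in excess, was at 3.13, 2.45 and 5.17 FPKM in MEC. It was at 0.335 FPKM in line 199, listed at 0 in line 233 and at 0.0119 FPKM in line 336. Here too all lines were below all MEC libraries, and line 199 kept 9.35% of the MEC mean. The log2 fold change was −2.01 (SE 0.30; limma, adjusted p = 0.0137).

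Hoxb3 (chr11:96323326-96347930), which lies between them, was at 2.11, 2.15 and 2.10 FPKM in MEC, the closest agreement of any HOX gene above 1 FPKM there. It was at 0.959 FPKM in line 199 and listed at 0 in lines 233 and 336. Its groups did not overlap either, but with a log2 fold change of −1.32 (SE 0.33) it missed the threshold (limma, adjusted p = 0.0568). It passed without line 199 (adjusted p = 0.00492), with a filter of 1 FPKM in the highest library (0.0475), with no mean-variance trend (0.0417) and with sample weights (0.0116). The call of Hoxb2 was lost without any 1 of MEC 1, MEC 2, MEC 3, line 233 or line 336 (adjusted p = 0.0516 to 0.0834) or with a pseudocount of 0.1 (adjusted p = 0.0514), and that of Hoxb4 without MEC 1 (adjusted p = 0.0656). In the exact permutation test (two-sided) on single genes, Hoxb2, Hoxb3 and Hoxb4 each had p = 0.1, the smallest that 3 against 3 libraries allow.

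Hoxb3os, a noncoding RNA on the opposite strand that overlaps Hoxb2 and Hoxb3, was at 5.06, 3.63 and 6.02 FPKM in MEC. It was at 1.83 FPKM in line 199 and listed at 0 in lines 233 and 336, so its pattern over the libraries was that of its neighbors. It was called lower (log2 fold change −2.04, SE 0.46; limma, adjusted p = 0.0416), a call that was lost without any 1 library other than line 199 (adjusted p = 0.0968 to 0.149), and also with no filter, a pseudocount of 0.1 or quantile normalization (adjusted p = 0.0715, 0.0803 and 0.0522). Whether the reads were counted by strand is not given in the sources used here, so reads of Hoxb3os, Hoxb2 and Hoxb3 cannot be told apart where they overlap.

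Expression toward the posterior end of cluster B belonged to line 199. Hoxb5, at 0.158 to 0.242 FPKM in MEC, was at 0.848 FPKM in that line, its first gene from the anterior end to exceed MEC. Hoxb6 was at 0.103 to 0.397 FPKM in MEC and 2.84 FPKM in line 199, and Hoxb7 at 0.133 to 0.576 FPKM and 3.09 FPKM. Hoxb8 was at 0.230 to 0.282 FPKM in MEC and 5.04 FPKM in line 199, 19.6 times the MEC mean. Hoxb9, one of the paralogs with a part in the gland's growth, was at 0.364, 0.531 and 0.127 FPKM in MEC and at 19.6 FPKM in line 199, 57.5 times the MEC mean. Thus line 199 was below MEC from Hoxb2 to Hoxb4 and above it from Hoxb5 to Hoxb9, with the level in that line higher at each step from Hoxb4 to Hoxb9. None of the genes from Hoxb5 to Hoxb9 exceeded 0.0349 FPKM in line 233 or 0.0186 FPKM in line 336, below every MEC library. Hoxb9 was the only tested one (log2 fold change 1.06, SE 1.17; limma, adjusted p = 0.583), and its difference turned to −0.39 without line 199. Hoxb1 and Hoxb13, at the ends of the cluster, did not exceed 0.0195 FPKM in any library.

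**Figure D3:**
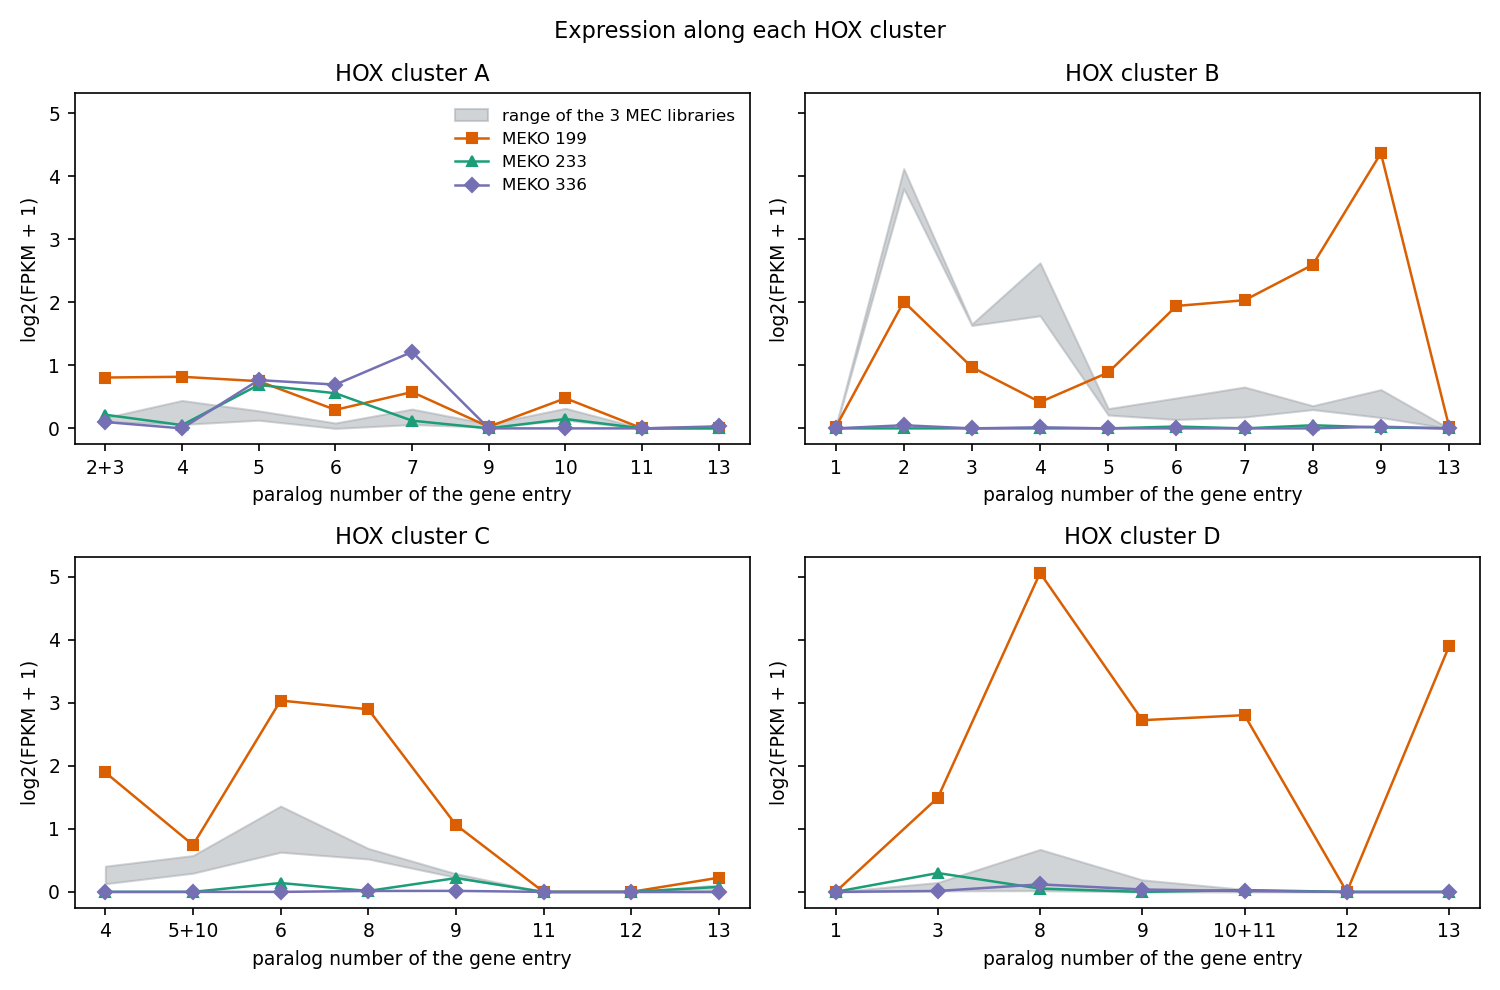
Level of each HOX entry as log2(FPKM + 1) against its paralog number, with 1 panel per cluster, a gray band for the lowest to the highest of the 3 MEC libraries and a line with symbols for each MEKO line. In cluster B the band peaks at Hoxb2 while line 199 climbs to Hoxb9. In clusters C and D line 199 is the only MEKO line that leaves the floor by much, and the MEC band rises at Hoxc6. In cluster A all 3 lines exceed MEC at paralogs 5 and 6.

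Across the libraries, most of cluster C followed the pattern of Hoxb6 to Hoxb9, but in line 199 its level was highest at Hoxc6 and not at the posterior end. Hoxc6, known in human breast cancer cells as a gene that responds to estrogen, was its highest gene in MEC at 0.547, 1.57 and 0.896 FPKM, and was at 7.19 FPKM in line 199, 0.102 FPKM in line 233 and listed at 0 in line 336. Hoxc8, a gene of the thoracic skeleton, was at 0.436, 0.611 and 0.454 FPKM in MEC and at 6.44, 0.0102 and 0.0100 FPKM in lines 199, 233 and 336. For both genes line 199 was above every MEC library and the other lines were below every one. Neither differed between the groups by the test (log2 fold changes 0.09, SE 0.83, and 0.39, SE 0.79; limma, adjusted p = 0.959 and 0.776), and both differences turned negative without line 199 (−0.90 and −0.57). With a pseudocount of 0.1 they were −0.95 and −0.47, and that of Hoxc6 was −0.083 without MEC 1.

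Hoxc4 was at 0.0942 to 0.326 FPKM in MEC and at 2.72 FPKM in line 199, and Hoxc9 at 0.173 to 0.221 FPKM and 1.09 FPKM. Hoxc4 was listed at 0 in both other lines, while Hoxc9 was at 0.164 FPKM in line 233 and 0.0110 FPKM in line 336. The joined entry of Hoxc5 and Hoxc10 was at 0.228 to 0.491 FPKM in MEC, 0.675 FPKM in line 199 and 0 in the others. In GENCODE the Hoxc5 gene spans Hoxc6, Hoxc8 and Hoxc9 on the same strand, and how their shared reads were divided is not known. Hoxc13, the last entry of the cluster above 0, did not exceed 0.169 FPKM in any library. Hotair, the noncoding RNA of this cluster, was listed at 0 in every library.

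Cluster D was nearly silent in every library but that of line 199, where it was the highest cluster. Hoxd8 (chr2:74704615-74707933) was at 0.316, 0.594 and 0.0134 FPKM in MEC, 32.3 FPKM in line 199, 0.0370 FPKM in line 233 and 0.0863 FPKM in line 336. In line 199 it was 105 times the MEC mean and the highest value of any HOX entry in the 6 libraries. Hoxd13 (chr2:74668310-74671599), the most posterior gene, which patterns digits and genitalia, was at 13.9 FPKM in line 199 and listed at 0 in the other 5 libraries. Hoxd9, the third paralog of mammary growth named above, was at 0 to 0.141 FPKM in MEC and 5.60 FPKM in line 199. The joined entry of Hoxd10 and Hoxd11, which pattern the limb and the lower spine, was at 0 to 0.0268 FPKM in MEC and 5.97 FPKM in line 199. Hoxd3 was at 0.0112 to 0.109 FPKM in MEC and 1.82 FPKM in line 199.

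These D genes were not uniform across line 199: Hoxd12, between Hoxd11 and Hoxd13, was listed at 0 there, as was Hoxd1. None passed the test, and neither other line came near the level of line 199. The log2 fold changes were 1.38 (SE 1.33) for Hoxd8, 1.30 (SE 1.05) for Hoxd13 and 0.94 (SE 0.77) for Hoxd10 with Hoxd11 (limma, adjusted p = 0.530, 0.455 and 0.463). Without line 199 that of Hoxd8 was −0.28 and that of Hoxd13 was 0.00. Hoxd3os1, a noncoding RNA that overlaps Hoxd3 and Hoxd8 on the opposite strand, was at 3.80 FPKM in line 199, at 0.162 FPKM in MEC 1 and listed at 0 elsewhere. In line 233, Hoxd3 at 0.230 FPKM was the highest of all entries of clusters B, C and D.

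Cluster A was the exception, as the only one in which lines 233 and 336 held HOX genes above MEC at more than 0.3 FPKM. Of the 34 entries, Hoxa5 and Hoxa6 were those with every MEKO line above every MEC library, and they are named for that reason, after their values were seen. Hoxa5 was at 0.0941, 0.213 and 0.101 FPKM in MEC and at 0.680, 0.613 and 0.700 FPKM in the lines. Its 3 lines stood close together (0.665 ± 0.0456, SD, n = 3) and far from MEC (0.136 ± 0.0666, SD, n = 3). Hoxa6 was at 0.0182, 0 and 0.0610 FPKM in MEC and at 0.226, 0.471 and 0.618 FPKM in the lines. Neither reached 1 FPKM in any library, so neither passed the filter on the mean. Each had p = 0.1 in the exact permutation test (two-sided). Groups that do not overlap always give this value with 3 against 3 libraries, so the choice of these entries fixed it. With no filter, Hoxa5 had an adjusted p of 0.0124 by limma with a log2 fold change of 0.55, under the threshold of 0.75, and Hoxa6 one of 0.0605 with 0.48. The same choice of entries favors small p values here, so nothing is read from these either. In GENCODE the Hoxa3 gene overlaps Hoxa4, Hoxa5 and Hoxa6 on the same strand, which limits how far their reads can be told apart from those of Hoxa3. Thus 2 of the 34 entries were higher in every MEKO line than in every MEC library, where this held for 13% of all entries above 0 in some library. The 3 entries that were lower in every line, Hoxb2, Hoxb3 and Hoxb4, compare with 16.7% of such entries. Among the 29 HOX entries above 0, both counts lie near or under the background.

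Hoxa7 reached 1 FPKM in line 336 alone, at 1.32 FPKM against 0.0436 to 0.236 FPKM in MEC. Line 199, at 0.491 FPKM, was also above MEC, and line 233, at 0.0883 FPKM, was within its range. Other genes of cluster A were low throughout: Hoxa4 did not exceed 0.763 FPKM, the entry of Hoxa2 and Hoxa3 did not exceed 0.749 FPKM, Hoxa10 0.393 FPKM, and Hoxa9 and Hoxa13 0.0502 FPKM. In all of them but Hoxa9 and Hoxa13 the highest library was line 199.

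A noncoding RNA of cluster A was called higher. Hotairm1, known from myeloid cells, was at 0.749, 0.877 and 1.32 FPKM in MEC and at 5.18, 14.8 and 7.12 FPKM in lines 199, 233 and 336. All lines were above all MEC libraries (log2 fold change 2.23, SE 0.37; limma, adjusted p = 0.0177), though the call was lost without any 1 of the MEC libraries (adjusted p = 0.0587 to 0.0852). The table holds this RNA on a joined entry. Line 233, which held no HOX entry of those described at 1 FPKM, was the highest library for Hotairm1. Gm15050, an antisense RNA within Hoxa3, was at 0.334, 0.389 and 2.87 FPKM in MEC and 6.61, 3.05 and 8.03 FPKM in the lines, and did not pass the test (log2 fold change 1.76, SE 0.52; limma, adjusted p = 0.0838). Of the 14 entries of the list of noncoding HOX RNAs, 7 were listed at 0 in every library and 2 were tested, Hotairm1 called higher and Hoxb3os called lower.

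**Figure D4:**
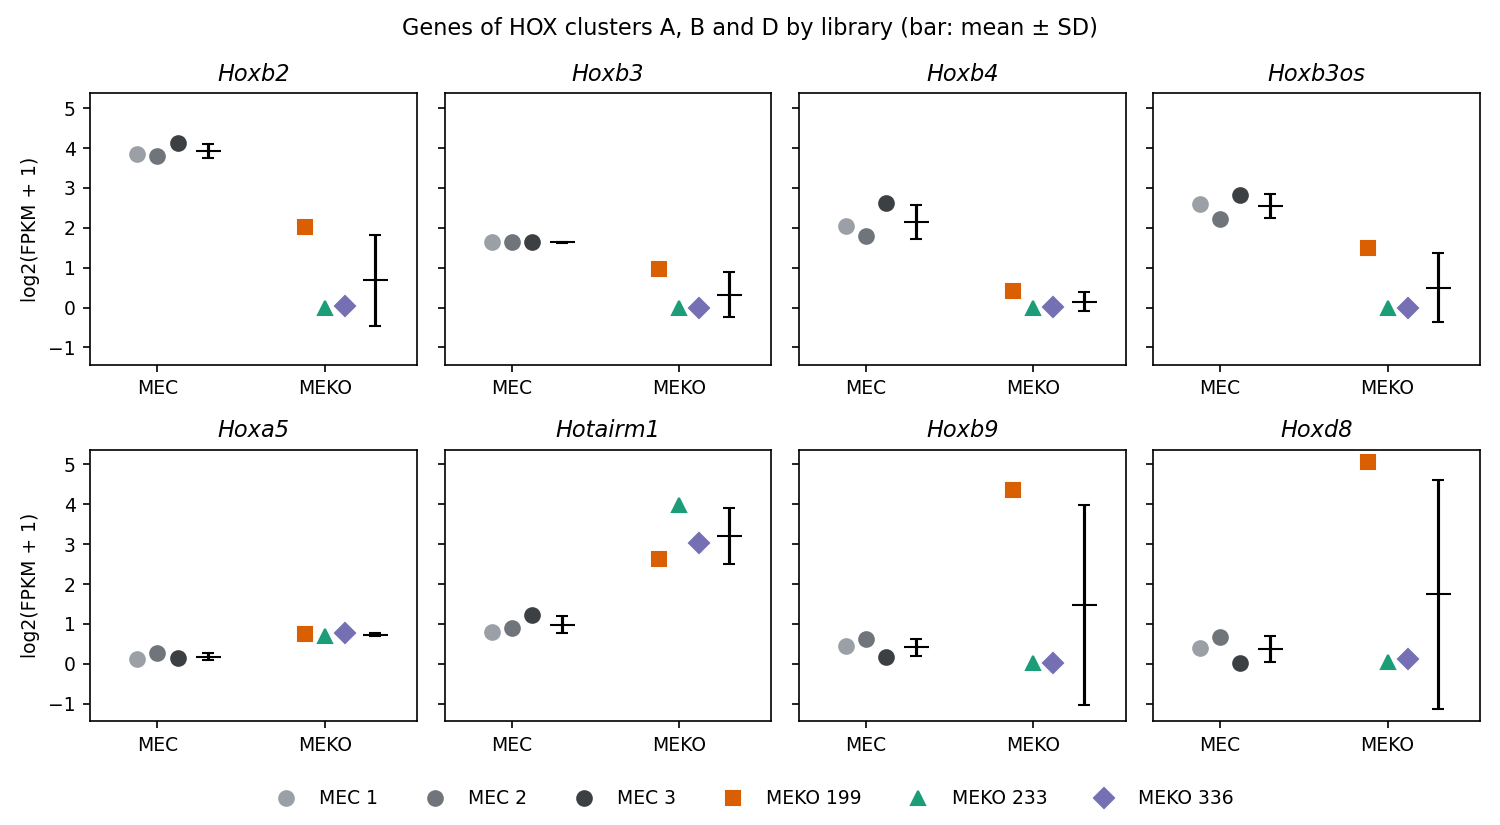
Level as log2(FPKM + 1) of 6 HOX genes and 2 noncoding RNAs of the clusters, with 1 point per library and a bar for the mean ± SD of the 3 values to the right of each group. Hoxb2, Hoxb3, Hoxb4 and Hoxb3os are lower in every MEKO line, Hoxa5 and Hotairm1 are higher in every one, and the means of Hoxb9 and Hoxd8 in MEKO rest on line 199.

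Each line was also set against the range of the 3 MEC libraries. In line 199, 6 of the 9 tested HOX entries were above all MEC libraries and 3 below, where 40.2% of all tested entries were above and 39.1% below. Those 6 are the entries that passed the filter only through line 199, so the filter fixed this count and nothing is read from it. In line 233, 0 were above and 6 were below, against 37.4% and 37.9% of all tested entries. In line 336, 0 were above and 6 were below, against 39.2% and 37.4%. Hoxb2, Hoxb3 and Hoxb4 are among the entries below MEC in both of these lines, and they met the filter mainly through MEC. The filter thus favored that direction for them, and nothing is read from the counts of lines 233 and 336 either. Over the 29 HOX entries above 0 in some library, line 199 had 24 above and 3 below, against 35.3% and 31.4% of all such entries. Line 233 had 4 above and 15 below (background 31.1% and 31.9%), and line 336 had 4 above and 18 below (background 32.4% and 31.5%). The members of 1 cluster lie side by side and are not independent, and each line is 1 library, so these counts are descriptions.

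By cluster, line 199 was above MEC for 7 of 9 entries of cluster A, 6 of 10 of B, 6 of 8 of C and 5 of 7 of D. Line 233 was below MEC for 8 entries of cluster B and 5 of C, and line 336 for the same numbers. No entry of clusters B, C or D, 25 in all, reached 1 FPKM in line 233 or line 336. In those lines 15 and 16 of them were listed at 0, against 4 in line 199 and 7 to 9 in the MEC libraries. Line 199 had the highest value of the 6 libraries for 20 of the 34 HOX entries: 3 of cluster A, 6 of B, 6 of C and 5 of D. The 34 include 5 entries at 0 in every library. Line 199 also had the highest relative depth (1.30 to MEC 1), which can favor it for entries near 0. The share of all entries with their highest value in line 199 was not computed, so nothing is read from this count.

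By position, the anterior entries of cluster B summed to 15.1 to 18.5 FPKM in MEC and the posterior ones to 0.127 to 0.531 FPKM. In line 199 the order was turned around, with 3.99 FPKM for the anterior, 12.2 FPKM for the central and 19.6 FPKM for the posterior entries. In cluster D of line 199 the anterior entries summed to 1.82 FPKM, the central to 32.3 FPKM and the posterior to 25.5 FPKM. The central entries of cluster A summed to 0.250 to 0.808 FPKM in MEC and to 2.16, 1.21 and 2.64 FPKM in lines 199, 233 and 336, and its posterior entries did not exceed 0.420 FPKM together.

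Markers of cell types also differed between libraries. Of these lists, only the fibroblast one had a sum above MEC in line 199 and below MEC in lines 233 and 336. Of 13 fibroblast markers, 8 were above all MEC libraries in line 199 and 4 below, and 12 were below all MEC in each of lines 233 and 336. Their summed level was 125 to 228 FPKM in MEC, 1177 FPKM in line 199, and 2.60 and 5.31 FPKM in lines 233 and 336. Collagen led in line 199 (Col1a1 at 599.7 FPKM against 44.2 to 74.7 FPKM in MEC), while the stromal genes Lum, Dcn, Dpt and Fap were at 0.0264, 0.311, 0.0120 and 0.124 FPKM there; none of the 13 was listed at 0. The 12 basal markers summed to 2041 to 3803 FPKM in MEC and 2600 FPKM in line 199. In that line 4 were above all MEC libraries (Krt5, Krt14, Trp63 and Cdh3) and 6 below. Krt5 was at 608 FPKM there against 201 to 435 FPKM in MEC, and Trp63 at 15.6 FPKM against 7.94 to 11.3 FPKM. Their sums were 98.3 and 83.0 FPKM in lines 233 and 336, where all 12 were below MEC. Of the 12, Myh11, Mylk and Oxtr were called lower, the last not without MEC 1, MEC 2, line 233 or line 336 (limma, adjusted p = 0.0583 to 0.0640), and of the fibroblast list only Dcn was called lower. The 18 luminal markers summed to 6397 to 10125 FPKM in MEC and 1245 to 2729 FPKM in the lines. Of the 14 tested, 9 were called lower (such as Elf5, Kit and Pgr) and 0 higher, against 7.26% and 2.64% of all tested entries. Line 199 had 15 of the 18 below all MEC libraries and 0 above. Line 233 had 14 below and 2 above (Areg and Esr1), and line 336 had 12 below and 2 above (Areg and Cldn3). Csn2 and Wap were at 0 in every library. Endothelial markers summed to 2.30 to 22.1 FPKM in MEC and 0.175 to 2.05 FPKM in the lines, leukocyte markers to 6.11 to 10.4 and 0.938 to 24.9 FPKM, and adipocyte markers to 1.76 to 12.6 and 1.76 to 7.13 FPKM. In bulk RNA, fewer cells of a type and less RNA per cell cannot be told apart. The part of these cell types in the HOX values was not tested.

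Genes that act with or upon HOX genes were read from lists. Of 9 tested genes of the TALE homeodomain family, whose PBX and MEIS members bind DNA with HOX proteins, 1 was called higher and 1 lower. Over all tested entries, 2.64% were called higher and 7.26% lower. With so few genes, the counts are not read as a result about this list. Meis2 was at 1.07, 1.35 and 0.622 FPKM in MEC and 3.18, 5.41 and 9.74 FPKM in the lines (log2 fold change 1.73; limma, adjusted p = 0.0380). Tgif1, a repressor of the family, was lower at 65.2 to 92.9 FPKM in the lines against 176 to 184 FPKM in MEC (log2 fold change −1.12; limma, adjusted p = 0.0138). Meis1 was at 1.23 to 1.78 FPKM in MEC and at 2.40, 0.946 and 0.211 FPKM in lines 199, 233 and 336 (limma, adjusted p = 0.616), a difference that turned from −0.34 to 0.024 without line 336 and to 0.17 with quantile normalization. Without MEC 1, MEC 2 or MEC 3 neither call held (adjusted p = 0.0504 to 0.136), and that of Meis2 was also lost without line 233 or line 336 (adjusted p = 0.0856 and 0.0582) and with no filter (adjusted p = 0.0712).

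No gene on the lists of Polycomb and Trithorax genes was called, where 2.64% of all tested entries were called higher and 7.26% lower. Of 29 tested Polycomb genes none passed, with log2 fold changes above 0 for 16 and below 0 for 13 and a median of 0.08. Ezh2, which methylates histone H3 at silent HOX genes, was at 22.2 to 31.1 FPKM in MEC and 29.8 to 40.9 FPKM in the lines (log2 fold change 0.36, SE 0.19; limma, adjusted p = 0.274). Of 15 tested genes on the Trithorax list none passed either, with a median of −0.019. That list also holds genes outside the complexes themselves, such as Ctcf and Dot1l. Kmt2a, the methyltransferase that maintains active HOX genes, was at 3.36 to 4.30 FPKM in MEC and 4.40 to 5.35 FPKM in the lines (log2 fold change 0.24, SE 0.18; limma, adjusted p = 0.414). Bmi1 and Psip1 reached adjusted p values of 0.0477 and 0.0423 by limma, with log2 fold changes of 0.57 and 0.71, under the threshold of 0.75. They were named after their values were seen. The 9 tested genes that flank the clusters also held no call, with log2 fold changes from −0.68 to 0.74 and a median of 0.42. Among them, Mtx2 reached an adjusted p of 0.0462 by limma with a log2 fold change of 0.68, also under the threshold of 0.75. It too was named after its values were seen. Expression values do not show where these proteins were bound.

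Of 12 tested genes of the retinoid pathway, 1 was called higher and 2 lower, against 2.64% and 7.26% of all tested entries. These small counts are not read as a result about the list. Aldh1a1 and Aldh1a3, which both make retinoic acid, moved in opposite directions. Aldh1a3 was at 137, 224 and 72.8 FPKM in MEC and 4.92, 0.309 and 1.13 FPKM in the lines (log2 fold change −5.70; limma, adjusted p = 0.00487). Aldh1a1 was at 0.185, 0.493 and 0.121 FPKM in MEC and 8.17, 14.4 and 50.6 FPKM in the lines, highest in line 336 (log2 fold change 3.95; limma, adjusted p = 0.0148). Rarb, a retinoic acid receptor that retinoic acid itself induces, was at 2.98 to 7.27 FPKM in MEC and 0.0452 to 0.410 FPKM in the lines (log2 fold change −2.06; limma, adjusted p = 0.0193). The call of Aldh1a1 was lost without any 1 of the MEC libraries (adjusted p = 0.0638 to 0.0748), and that of Rarb without MEC 1, MEC 2 or line 233 (adjusted p = 0.0502 to 0.0678). Cdx1, Cdx2 and Cdx4, activators of central HOX genes in the embryo, did not exceed 0.0138 FPKM in any library.

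**Figure D5:**
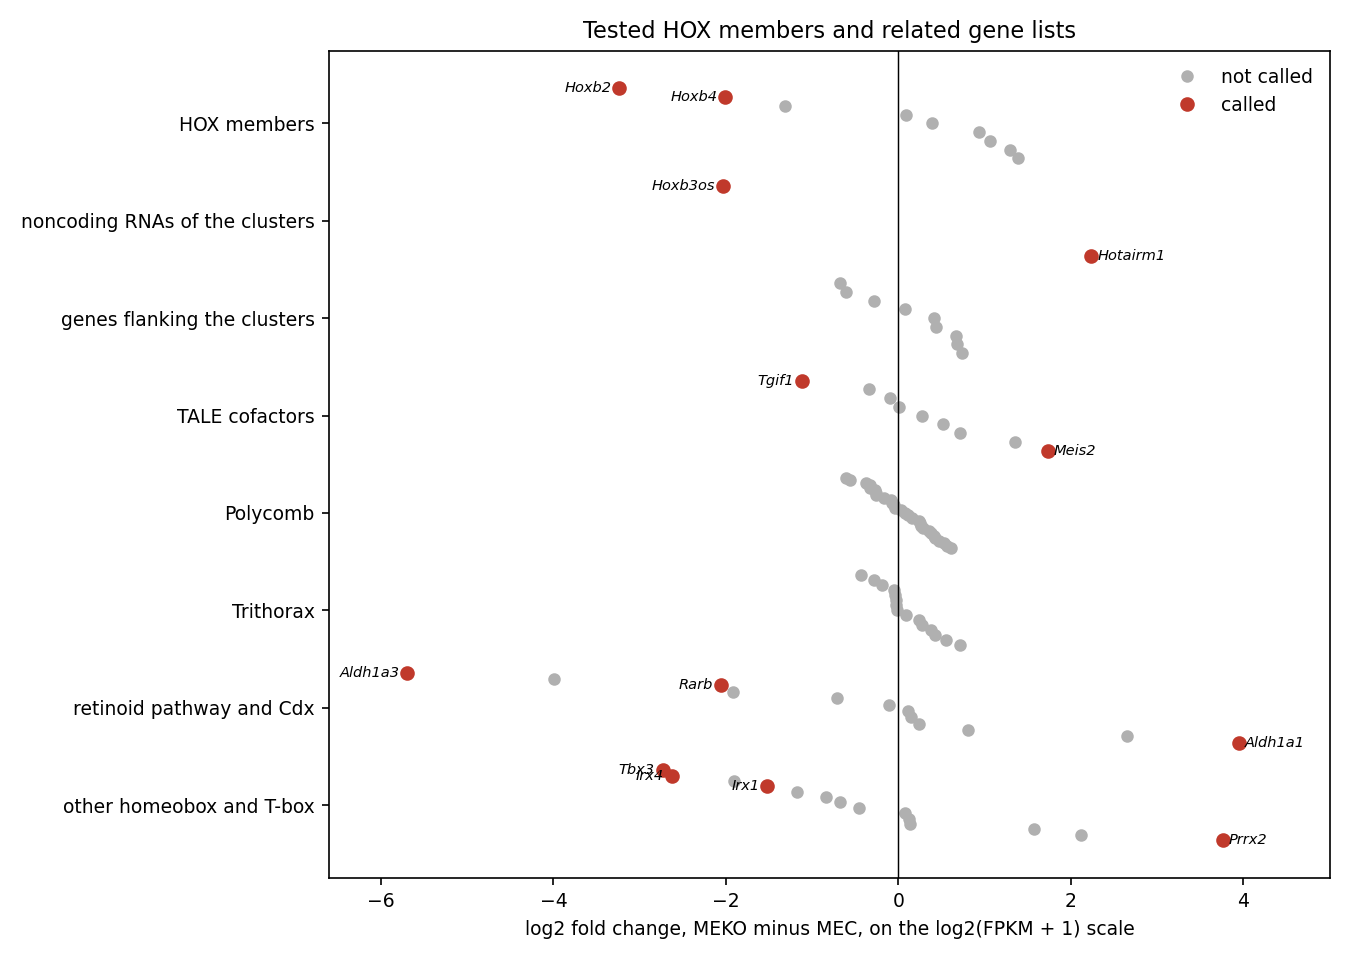
Log2 fold change, MEKO minus MEC, of the tested HOX entries and of the tested genes in 7 related lists, 1 point per entry, with called genes in red and named. Hoxb2 and Hoxb4 are the called HOX genes, no Polycomb, Trithorax or flanking gene is called, and the retinoid genes spread from −5.70 to 3.95.

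Other patterning genes outside the HOX clusters were read from a list too. Of 14 tested homeobox and T-box genes, 1 was called higher and 3 lower, against 2.64% and 7.26% of all tested entries. Their median log2 fold change was −0.57. Here too the small counts are not read as a result about the list. Prrx2, a homeobox gene of limb and facial mesenchyme, was at 0.478 to 1.45 FPKM in MEC and 13.5, 30.3 and 31.7 FPKM in the lines (limma, adjusted p = 0.00371). Irx4 was at 5.04 to 5.40 FPKM in MEC, at 0.00957 FPKM in line 199 and listed at 0 in the other lines (limma, adjusted p = 0.00167). Tbx3, needed for the mammary bud to form, was at 12.3 to 16.4 FPKM in MEC and 4.12, 0.0513 and 1.03 FPKM in lines 199, 233 and 336 (limma, adjusted p = 0.0308), and Irx1 was at 39.4 to 97.6 and 16.0 to 23.8 FPKM (limma, adjusted p = 0.0497). These 4 genes are named because they were called. Others of the list split by line, such as Prrx1, named after its values were seen, which was at 1.14 to 5.36 FPKM in MEC and at 15.4, 0.0415 and 0.0719 FPKM in lines 199, 233 and 336. The calls of Tbx3 and Irx1 were lost without any 1 of MEC 1, MEC 2, MEC 3 or line 336 (adjusted p = 0.0657 to 0.126), and that of Irx1 also without line 199 or line 233 (adjusted p = 0.0858 and 0.121). With no filter or a pseudocount of 0.1 both were lost (adjusted p = 0.0511 to 0.0799), and Irx1 was lost with a mean of at least 5 FPKM, no trend or upper-quartile scaling too (adjusted p = 0.0516 to 0.0566).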

How the data were processed

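The authors trimmed 150 bp paired-end reads (Trimmomatic), mapped them to mm10 (Bowtie2, TopHat2 2.0.14) and quantified genes with Cufflinks 2.2.1. The deposited table gives FPKM for 37755 entries, of which 2 hold no values, 466 join several names and 15940 are at 0 in every library. Summed FPKM was 557991 to 638365 per library. From ratios of small values, depth relative to MEC 1 was 0.920 to 1.30, and absolute depth is unknown, so no counting interval was computed.

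MEKO was compared with MEC in limma 3.58.1 (R 4.3.3) on log2(FPKM + 1), which understates changes of low genes. Entries with a mean of at least 1 FPKM were tested, using limma's trend option, and p values were adjusted over all of them (Benjamini-Hochberg). Exact permutation tests (two-sided) on log2(FPKM + 1) used scipy 1.17.1. The fit was tested on simulated data. Libraries come from separate cultures or tumors.

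Named were HOX entries of at least 1 FPKM in a group mean or any library or past the test; up to 6 called genes per list; Ezh2, Kmt2a and Meis1; and Mapk8 and Mapk9. A few genes, 1 of them a HOX gene, are not reported here and are left out of counts, sums and medians of HOX genes and lists; they remain among all entries tested. Members and lists were chosen with earlier results of these data known. Positions are from GENCODE M21 and promoter windows from RefSeq (GRCm38.p6). Alternatives changed the pseudocount, filter, scaling, variance model and libraries.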

Additional observations from a re-analysis of the deposited data

How the results depend on the processing

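No paired analysis was possible because the numbers of the MEKO lines are not shared with the MEC libraries. Of the described HOX entries, 0 were called higher in every alternative run; they numbered 1 lower with a mean of at least 5 FPKM or a pseudocount of 0.1, and 0 to 3 lower with 1 library left out (0 without MEC 1, 3 without line 199). They also numbered 3, with Hoxb3, with the highest library at 1 FPKM or more, no mean-variance trend or sample weights. Over all genes, 329 were called higher and 905 lower; these counts were 600 and 1378 with sample weights, 49 to 546 and 251 to 1340 with 1 library left out, and 501 lower with a mean of at least 5 FPKM. Quantile normalization raised the share of calls that were higher from 26.7% to 37.9% and moved the median of all genes from 0.014 to 0.10; without 1 MEC library the share was 16.3% to 18.4%.

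The median log2 fold change of tested HOX entries was −0.93 with a mean of at least 5 FPKM, −0.47 with a pseudocount of 0.1 and −0.025 with sample weights; that of cluster B was 0.30 with the highest library at 1 FPKM or more, −3.24 with a mean of at least 5 FPKM, 0.017 with no filter and −3.85 with a pseudocount of 0.1, so its sign rests on which low entries are included. Differences that turned sign, none of them called, were Hoxb9 (−0.39), Hoxc6 (−0.90), Hoxc8 (−0.57), Hoxd8 (−0.28) and Hoxd13 (0.00, at 0 in all libraries left) without line 199, Hoxc6 without MEC 1 (−0.083), Hoxc6 (−0.95) and Hoxc8 (−0.47) with a pseudocount of 0.1, Hoxc6 (−0.14) and Hoxc8 (−0.025) with sample weights, and Meis1 with quantile normalization (0.17) and without line 336 (0.024). With 1 library left out, these differences ranged from −0.39 to 1.78 for Hoxb9, −0.90 to 0.62 for Hoxc6, −0.57 to 0.87 for Hoxc8, −0.28 to 2.23 for Hoxd8, 0.00 to 1.95 for Hoxd13 and −0.72 to 0.024 for Meis1. Apart from those where libraries or low entries were left out, the cause was not tested. Hoxb2 lost its call in 6 of 15 alternatives (adjusted p = 0.00122 to 0.0834) and Hoxb4 in 1 of 14 (0.00603 to 0.0656); both were lower than MEC in each.

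Taking the 29 HOX entries above 0 rather than the tested ones, a choice made after seeing the data, gave 24 entries of line 199, 4 of line 233 and 4 of line 336 above MEC, and 15 of line 233 and 18 of line 336 below. At 0.1 FPKM, 18, 19, 14, 25, 7 and 3 HOX entries were found in MEC 1, MEC 2, MEC 3 and lines 199, 233 and 336. In the same order, 4, 8, 4, 20, 1 and 3 were found at 0.5 FPKM, and 1, 1, 2, 8, 0 and 0 at 5 FPKM. At 10 FPKM there was 1 in each MEC library, 3 in line 199 and 0 in lines 233 and 336.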
